A study of Homo sapiens with 5 samples.

Results

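WBP11 was lowered in DLD-1 cells by 2 routes, and the retention of the same introns was read in each. DLD-1 is a human colorectal adenocarcinoma cell line. The comparison holds 10391 introns of 4432 genes. They are the introns listed in both deposited WBP11 tables, matched on chromosome, start, end and strand, and counted only where the depth of the intron and its spliced reads add up to 10 or more in each of the 4 libraries. For the siRNA pair 16629 introns are listed and for the auxin pair 22471, with 28388 in the union and 10712 in both. The depth minimum left out 321 of these. Which introns stand in both tables follows from the depositors' own filters, so introns that each table listed alone were not compared.

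The first group is DLD-1 LacZeo cells given 100 nM WBP11 siRNA for 72 h. Its control is DLD-1 LacZeo cells for which the labels give no treatment, although the file header names a control RNAi. The next group, here called the WBP11 auxin degron, was kept in 500 µM auxin for 48 h. In the series description, endogenous WBP11 is knocked out there and an AID-tagged WBP11 transgene, which auxin sends to degradation, takes its place. Its control had the same auxin dose and time. The labels give both auxin libraries the same genotype, DLD-1 LacZeo osTIR1, where osTIR1 is the plant receptor that recruits AID-tagged proteins for degradation in the presence of auxin, and name neither the tag nor the knockout. Neither the number of clones nor a degron library without auxin is given in the labels used here. Each group has 1 library, so no difference has a replicate check and no p-value is given. Cell line, agent and time differ between the pairs and cannot be told apart from the route of depletion.

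WBP11 is a nuclear protein of the spliceosome that also binds protein phosphatase 1. The spliceosome removes an intron by pairing its start (the 5′ splice site), its branch point and its end (the 3′ splice site, after a run of pyrimidines). An intron that is not removed stays in the mature RNA, which is called intron retention, and often places a stop codon in the reading frame. siRNA removes the WBP11 mRNA, so the protein falls as it turns over, whereas auxin acts on the tagged protein itself.

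The IR ratio, printed here as retention in percent, is the share of an intron's transcripts in which it is kept: intron depth over intron depth plus spliced reads. The change in a pair is the depleted library minus its control, in percentage points. The difference of changes is the change in the siRNA pair minus the change in the auxin pair, so a positive value means a larger rise, or a smaller fall, with siRNA. An intron is called raised or lowered in a pair when its change is at least 10 points, and higher in one pair when the difference of changes is at least 10 points. Intervals are 95% and cover counting error only.

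Introns whose change was higher in the auxin pair were mostly of up to 100 bp (62.7%), against 14.6% of those higher in the siRNA pair. The sequences of introns that the results below turn on are given first. They were read from GENCODE 29 transcripts (GRCh38) in which an exon spans the whole intron. They run 5′ to 3′ on the gene's strand, with the first 6 and the last 3 bases of the intron in capitals. The first set holds introns retained far more with auxin than with siRNA.

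DNAJC2 intron 8, chr7:103322633-103322702, minus strand, 70 bp: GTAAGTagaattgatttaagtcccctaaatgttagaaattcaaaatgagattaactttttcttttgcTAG
XPO1 intron 9, chr2:61498793-61498864, minus strand, 72 bp: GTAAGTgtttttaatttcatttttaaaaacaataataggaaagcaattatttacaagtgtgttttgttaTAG
NCAPD2 intron 7, chr12:6514393-6514463, plus strand, 71 bp: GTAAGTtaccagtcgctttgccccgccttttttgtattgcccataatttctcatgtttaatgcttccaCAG
GCLC intron 13, chr6:53500351-53500431, minus strand, 81 bp: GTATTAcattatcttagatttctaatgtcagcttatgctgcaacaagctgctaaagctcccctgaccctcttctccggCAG
CEP131 intron 24, chr17:81189844-81189914, minus strand, 71 bp: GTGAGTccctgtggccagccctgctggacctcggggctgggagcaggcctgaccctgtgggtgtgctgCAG
THOC6 intron 5, chr16:3026289-3026364, plus strand, 76 bp: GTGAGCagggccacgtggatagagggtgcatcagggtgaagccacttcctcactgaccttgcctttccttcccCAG
SNW1 intron 13, chr14:77718287-77718366, minus strand, 80 bp: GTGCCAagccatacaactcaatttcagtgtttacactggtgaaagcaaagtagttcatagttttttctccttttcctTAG
HNRNPH1 intron 7, chr5:179617933-179617988, minus strand, 56 bp: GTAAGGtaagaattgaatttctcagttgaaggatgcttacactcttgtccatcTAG
CDCA5 intron 3, chr11:65083400-65083484, minus strand, 85 bp: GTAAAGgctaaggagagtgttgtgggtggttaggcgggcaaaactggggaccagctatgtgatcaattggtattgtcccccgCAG
TUBGCP6 intron 23, chr22:50218118-50218188, minus strand, 71 bp: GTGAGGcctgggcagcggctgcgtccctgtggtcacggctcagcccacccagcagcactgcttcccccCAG

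The second set holds introns whose retention went up more with siRNA, of which CDCA5 intron 1 and MUS81 intron 12 sit in genes that also have an intron of another set.

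CDCA5 intron 1, chr11:65083724-65083932, minus strand, 209 bp: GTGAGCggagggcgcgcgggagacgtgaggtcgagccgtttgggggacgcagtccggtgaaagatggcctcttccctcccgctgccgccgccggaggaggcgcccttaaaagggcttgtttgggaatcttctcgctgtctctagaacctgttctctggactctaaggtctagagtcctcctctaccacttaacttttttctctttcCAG
MUS81 intron 12, chr11:65864816-65865016, plus strand: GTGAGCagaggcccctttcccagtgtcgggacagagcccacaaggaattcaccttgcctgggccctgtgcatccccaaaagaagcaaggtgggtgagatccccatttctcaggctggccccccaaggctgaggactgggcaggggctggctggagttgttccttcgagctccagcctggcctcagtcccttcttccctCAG
SLC26A6 intron 13, chr3:48629712-48629871, minus strand, 160 bp: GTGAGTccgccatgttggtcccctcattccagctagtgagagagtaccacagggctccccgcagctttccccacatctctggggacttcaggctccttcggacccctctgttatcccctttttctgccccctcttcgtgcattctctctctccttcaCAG
ZNF764 intron 1, chr16:30557847-30557986, minus strand, 140 bp: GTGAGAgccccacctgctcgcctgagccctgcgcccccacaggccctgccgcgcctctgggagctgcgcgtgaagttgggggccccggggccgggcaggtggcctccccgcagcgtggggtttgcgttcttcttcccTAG

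The last set holds introns retained strongly by both routes.

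MUS81 intron 13, chr11:65865146-65865219, plus strand, 74 bp: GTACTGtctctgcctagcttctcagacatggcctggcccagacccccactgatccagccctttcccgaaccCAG
CLTCL1 intron 25, chr22:19196416-19196488, minus strand, 73 bp: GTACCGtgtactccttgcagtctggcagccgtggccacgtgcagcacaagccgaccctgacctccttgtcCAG
AP1G2 intron 13, chr14:23563503-23563583, minus strand, 81 bp: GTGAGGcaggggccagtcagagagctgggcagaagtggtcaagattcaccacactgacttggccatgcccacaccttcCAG
CNOT11 intron 6, chr2:101269137-101269215, plus strand, 79 bp: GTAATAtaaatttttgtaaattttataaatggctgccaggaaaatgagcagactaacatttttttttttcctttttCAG

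Each of these introns starts with GT and ends with AG. The 20 bases before the final 3 held 14 pyrimidines in DNAJC2 intron 8, 11 in CEP131 intron 24 and 15 in HNRNPH1 intron 7 of the first set. They held 17 in CDCA5 intron 1 and 17 in SLC26A6 intron 13 of the second, and 14 in MUS81 intron 13 and 19 in CNOT11 intron 6 of the last. GC content was 20.8% in XPO1 intron 9 and 71.8% in TUBGCP6 intron 23, although both belong to the first set. A full sequence could be read for 2358 introns, 22.7% of all, so base composition inside introns was not compared between sets.

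At the shared introns the libraries held 2143892 spliced reads with WBP11 siRNA, 2269340 in its control, 2241328 in the WBP11 auxin degron and 2006347 in the auxin control. Median depth plus spliced reads per intron was 109 with WBP11 siRNA and 120 in its control, and 130 in the WBP11 auxin degron and 106 in the auxin control. Median retention was 3.09% with WBP11 siRNA and 2.29% in its control, and 6.17% in the WBP11 auxin degron and 3.43% in the auxin control. The 2 controls therefore did not start level: the siRNA-arm control lay below the auxin control by a median of 0.82 points, and the controls were at least 10 points apart at 697 introns (6.71%). WBP11 itself was read through different introns in each table. Its introns 7 and 11 had 12 and 8 spliced reads with WBP11 siRNA, against 176 and 136 in its control, a sum of 6.75% of the control level relative to all listed introns. Intron 1 of WBP11, in the 5′ UTR, had 103 spliced reads in the WBP11 auxin degron and 235 in the auxin control, or 38%. That value says little of the depletion, because auxin acts on the protein and endogenous WBP11 is knocked out there in the series description. Whether these reads came from the knocked-out gene or the transgene was not tested. Of 17 colon epithelial markers, 7 were listed in the siRNA table and 9 in the auxin table, and none of 15 fibroblast and leukocyte markers was listed in either. The listed introns of these epithelial genes held 46165 spliced reads with WBP11 siRNA and 55449 in its control, and 22329 in the WBP11 auxin degron and 34153 in the auxin control. The part of cell state in the results was not tested.

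Retention went up in both pairs, and more in the auxin pair. In the siRNA pair 1082 introns were raised, 10.4% of the 10391, and 154 lowered (1.48%). In the auxin pair 2144 were raised (20.6%) and 184 lowered (1.77%). Over all introns in its own table at the same depth, the share raised was 9.07% in the siRNA pair and 13.8% in the auxin pair. The median change was 0.934 points with siRNA (quartiles -1 and 3.66) and 2.11 points with auxin (quartiles -0.192 and 7.91). The change lay above 0 at 62.7% of introns with siRNA and at 72.9% with auxin.

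Raised in both pairs were 723 introns (6.96%). They make up 66.8% of the introns raised with siRNA and 33.7% of those raised with auxin. Lowered in both were 39 introns (0.375%), which are 25.3% of those lowered with siRNA and 21.2% of those lowered with auxin. The sign of the change was the same in both pairs at 7231 introns (69.6%), and 7632 (73.4%) stayed within 10 points in both. Across introns the changes had a Pearson correlation of 0.51 and a Spearman correlation of 0.47 (n = 10391), given as a description, since introns share libraries and genes.

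**Figure D1:**
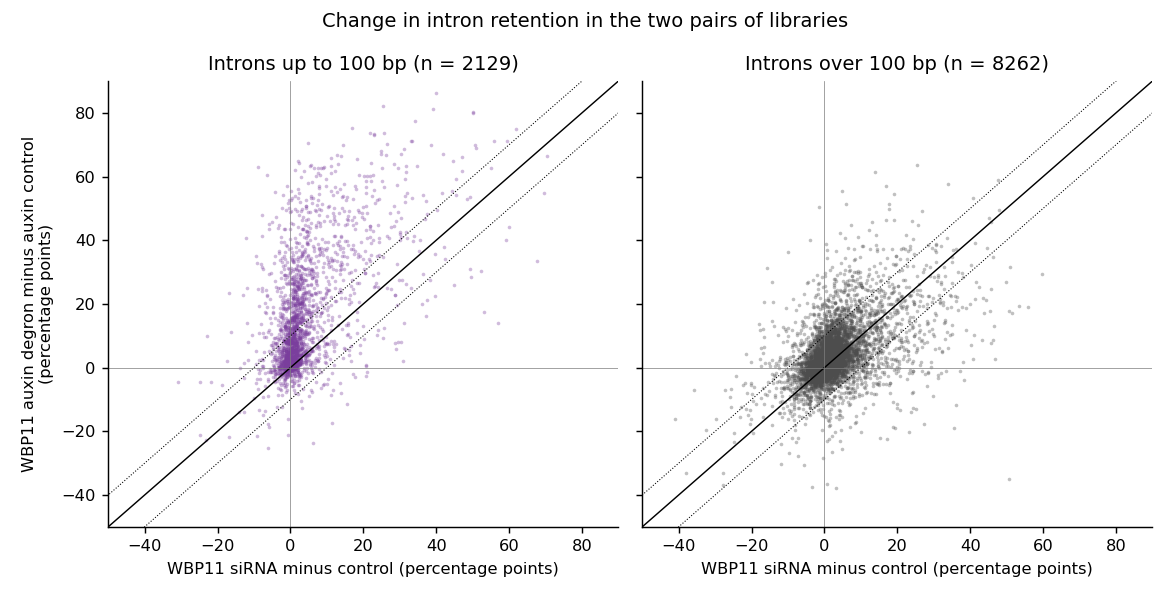
Each point is 1 shared intron, with its change in the siRNA pair on the x axis and in the auxin pair on the y axis, both in percentage points. The left panel shows the 2129 introns of up to 100 bp and the right panel the longer ones; the solid line marks equal changes and the dotted lines a difference of 10 points. Short introns spread upward, away from the line of equal changes.

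The difference of changes was at least 10 points at 2 sets of introns of unequal size. The change was higher in the siRNA pair at 458 introns (4.41%) in 365 genes, and higher in the auxin pair at 1571 introns (15.1%) in 1131 genes. The other 8362 (80.5%) lay within 10 points. The median difference was -1.39 points, with quartiles of -5.55 and 1.06. The counting interval left out 0 at 203 of the 458 siRNA-higher introns (44.3%) and at 1151 of the 1571 auxin-higher ones (73.3%).

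The 2 sets differed in what lay behind the difference. Of the siRNA-higher introns 231 were raised with siRNA only, 84 in both pairs and 143 in neither, and 99 were lowered with auxin. Of the auxin-higher introns 1096 were raised with auxin only, 295 in both and 180 in neither, and 86 were lowered with siRNA. The controls differed by at least 10 points at 205 of the siRNA-higher introns (44.8%) and at 189 of the auxin-higher ones (12%). Set directly against each other, the depleted libraries were apart the same way by at least 10 points at 45.4% of the siRNA-higher introns and at 90.3% of the auxin-higher ones. A difference of changes contains both control values. With controls within 5 points of each other, at 8538 introns, 155 introns were siRNA-higher and 1062 auxin-higher. An intron that overlaps an annotated exon, where exon reads count as retention, made up 17.9% of the siRNA-higher set, 8.34% of the auxin-higher set and 5.69% of all.

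Intron length separated the sets. Median length was 219 bp in siRNA-higher introns and 88 bp in auxin-higher introns, against 313 bp in all. Introns of up to 100 bp made up 14.6% of the siRNA-higher set and 62.7% of the auxin-higher set, against 20.5% of all. Introns raised in both pairs had a median length of 127 bp, those raised with siRNA only 221 bp and those raised with auxin only 93 bp.

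In the 722 introns of up to 80 bp, median retention was 5.77% with WBP11 siRNA and 3% in its control, and 34% in the WBP11 auxin degron and 5.83% in the auxin control. The median change there was 2.33 points with siRNA and 23.3 points with auxin, with 24.5% of introns raised by siRNA and 72.4% by auxin. The auxin pair was higher at 67.6% of them and the siRNA pair at 2.35%. In the 1407 introns of 81 to 100 bp the median change was 1.26 points with siRNA and 6.79 points with auxin, with 12.7% raised by siRNA and 40.8% by auxin.

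Between 100 and 500 bp the pairs came close together. In the 1872 introns over 100 and up to 200 bp the median change was 1.57 points with siRNA and 1.76 points with auxin, 14.5% were raised with siRNA and 16.2% with auxin, and 7.69% were siRNA-higher and 7.43% auxin-higher. In the 2273 introns over 200 and up to 500 bp, 13.5% were raised with siRNA and 15.8% with auxin. Longer introns were again raised more often with auxin. In the 2809 introns over 500 and up to 2000 bp, 4.81% were raised with siRNA and 10.1% with auxin, and 2.85% were siRNA-higher and 7.19% auxin-higher. Over 2000 bp the median change was -0.287 points with siRNA and 1.57 points with auxin, with 1.15% raised by siRNA and 7.65% by auxin, and 0.917% siRNA-higher and 7.87% auxin-higher. The step was steep in bins of 10 bp. The share raised was 34% with siRNA and 84.9% with auxin at 61 to 70 bp, and 23.7% with siRNA and 71.4% with auxin at 71 to 80 bp. It was 13.9% with siRNA and 48.2% with auxin at 81 to 90 bp, 10.4% with siRNA and 28% with auxin at 91 to 100 bp, and 13.2% with siRNA and 19.7% with auxin over 100 and up to 110 bp.

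**Figure D2:**
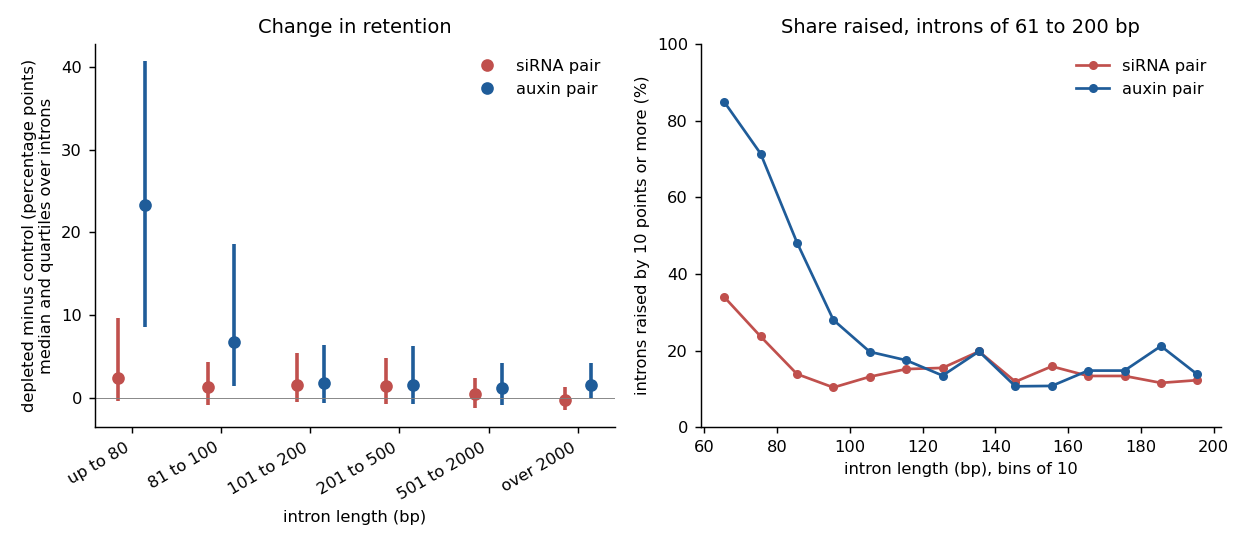
The left panel gives the median change in retention (point) with quartiles over introns (line) by intron length class in bp, for the siRNA pair and the auxin pair, in percentage points; the right panel gives the share of introns raised by at least 10 points, in percent, in bins of 10 bp between 61 and 200 bp. The auxin pair lies above the siRNA pair below 100 bp, at 34% with siRNA against 84.9% with auxin raised in the shortest bin. Beyond 110 bp the gaps are smaller than below 100 bp and go both ways, the widest being 11.6% with siRNA against 21.2% with auxin at 181 to 190 bp.

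The same split appeared inside genes. There were 826 genes with at least 1 shared intron of up to 100 bp and 1 over 200 bp, with 1497 short and 1825 long introns between them. The median over genes of the mean change with siRNA was 1.63 points for the short introns and 1.51 points for the long ones, and the short introns lay above the long in 428 genes (51.8%). With auxin it was 12.2 points for the short introns and 2.76 points for the long ones, and the short introns lay above the long in 641 genes (77.6%). Short and long introns were compared within each gene, so both kinds were read in the same gene and library.

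GC content next to the splice sites went with the share of introns raised, in a way that differed with length. It was taken from the 50 exon bases on each side of an intron and cut into 4 classes at 48%, 56% and 61%. Among introns of up to 100 bp, those in the lowest class were raised in 14.8% of cases with siRNA and 63.2% with auxin, and those in the highest class in 18.6% with siRNA and 48.8% with auxin. Among introns over 100 and up to 500 bp, the lowest class was raised in 6.9% with siRNA and 8.59% with auxin, and the highest class in 19.8% with siRNA and 21.8% with auxin. Of the GC-rich introns of that length 11.1% were siRNA-higher and 9.63% auxin-higher, and their median control retention was 3.34% in the siRNA-arm control and 5.16% in the auxin control.

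By place in the transcript, first introns were raised in 6.87% of cases with siRNA and 10.4% with auxin, inner introns in 10.9% with siRNA and 21.8% with auxin, and last introns in 8.04% with siRNA and 15.8% with auxin. First and last introns were also longer, with a median of 751 bp and 383 bp against 291 bp for inner ones. Introns of the coding region were raised in 10.3% with siRNA and 20.8% with auxin. Of the 75 introns in 3′ UTRs, 17.3% were raised with siRNA and 14.7% with auxin. The upstream exon ended in G at 67.4% of introns raised with siRNA only, 79.7% of those raised with auxin only, 71.9% of those raised in both and 75.1% of those raised in neither. Among introns of up to 100 bp the shares were 72.1% for siRNA only, 83.3% for auxin only, 81.7% for both and 79.5% for neither, so the place of introns raised in both differed with length.

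The share raised also differed with the level of retention in the controls. Where the mean of the 2 controls was 0 to 2%, 2.87% of introns were raised with siRNA and 12.6% with auxin. At 20 to 50% the shares were 45.8% with siRNA and 46.7% with auxin, and at 50 to 100% they were 41.7% with siRNA and 30.4% with auxin. The introns raised with auxin only had a median control retention of 3.02% in the siRNA-arm control and 4.67% in the auxin control, and those raised with siRNA only had 8% in the siRNA-arm control and 13.4% in the auxin control. By these medians, introns raised with auxin only were more fully spliced in both controls than those raised with siRNA only. They were less fully spliced than introns raised in neither pair, with medians of 1.98% in the siRNA-arm control and 2.83% in the auxin control. Each control is subtracted in the changes used here, so neither these contrasts nor the classes above are independent of the calls. The sets also differed in length, with medians of 93 bp for auxin only and 221 bp for siRNA only.

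Named genes put values to these classes. The 12 genes with the strongest difference on the auxin side, ranked by the interval bound nearest to 0, each had an intron of 70 to 86 bp inside the coding region. DNAJC2, a ribosome-associated chaperone partner, kept intron 8 in 8.82% of transcripts with WBP11 siRNA and 6.74% in its control, against 77.9% in the WBP11 auxin degron and 12.9% in the auxin control. Its difference of changes was -62.9 points (-69.3 to -56.8), at depths plus spliced reads of 202 to 775. XPO1, the main export receptor of the nucleus, kept intron 9 in 9.1% with WBP11 siRNA and 2.06% in its control, and in 62.6% in the WBP11 auxin degron and 2.52% in the auxin control, a difference of -53 points (-57.1 to -48.6). In both genes 3 of the 4 libraries were low and the WBP11 auxin degron alone was high.

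NCAPD2, a condensin I subunit, had 5.13% retention of intron 7 with WBP11 siRNA and 2.36% in its control, and 63.3% in the WBP11 auxin degron and 3.49% in the auxin control, a difference of -57.1 points. THOC6, of the THO mRNA export complex, had 13.8% with WBP11 siRNA and 12.7% in its control at intron 5, and 77.8% in the WBP11 auxin degron and 15.6% in the auxin control, a difference of -61.1 points. CLASRP, an SR-rich protein that binds the splicing kinase CLK4, had 13.2% retention of intron 9 with WBP11 siRNA and 2.15% in its control, and 67.8% in the WBP11 auxin degron and 2.14% in the auxin control. That intron was raised in both pairs, by 11 points with siRNA and by 65.7 points with auxin.

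OSBP, an oxysterol-binding protein of lipid exchange, kept intron 13 (85 bp, chr11:59576720-59576804) in 25.8% of transcripts with WBP11 siRNA and 0.319% in its control, and in 83.5% in the WBP11 auxin degron and 1.22% in the auxin control. GCLC, the catalytic subunit of the enzyme that begins glutathione synthesis, kept intron 13 in 5.83% with WBP11 siRNA and 0.246% in its control, and in 67.9% in the WBP11 auxin degron and 4.47% in the auxin control. CEP131, a centriolar satellite protein, had 3.17% with WBP11 siRNA and 9.62% in its control at intron 24 and 77.2% in the WBP11 auxin degron and 16.7% in the auxin control, and that intron overlaps an annotated exon. The other 4 introns were in WASHC5 of the WASH complex, LRPPRC of mitochondrial mRNA handling, NPAT of histone gene transcription and CPSF1 (intron 34) of pre-mRNA cleavage, and had differences between -65.9 and -55.1 points. In all of these the WBP11 auxin degron was the highest of the 4 libraries.

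The 12 genes on the siRNA side had introns of 105 to 500 bp, and none of their controls lay below 4.79%. TNIP2, which binds the NF-κB inhibitor A20, kept intron 3 (500 bp, chr4:2744946-2745445) in 50.9% of transcripts with WBP11 siRNA and 4.79% in its control, against 15.2% in the WBP11 auxin degron and 6.61% in the auxin control. Its difference was 37.6 points (26.4 to 48.3) at depths plus spliced reads of 135 to 210, and the controls were within 2 points of each other. HDAC10, a polyamine deacetylase, kept intron 17 (205 bp, chr22:50246093-50246297) in 44.5% with WBP11 siRNA and 6.57% in its control, and in 19.5% in the WBP11 auxin degron and 17.6% in the auxin control, a difference of 36 points. SLC26A6, an anion exchanger, kept intron 13 in 61.1% with WBP11 siRNA and 20.3% in its control, and in 31.1% in the WBP11 auxin degron and 28.4% in the auxin control, a difference of 38 points. In each of these genes the WBP11 siRNA library stood above the other 3.

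ACTR1B, the β-centractin of dynactin, followed at intron 5 with 67% with WBP11 siRNA and 21.3% in its control, and 43.5% in the WBP11 auxin degron and 35.6% in the auxin control. CTNNB1, which encodes β-catenin, kept a 3′ UTR intron in 32.6% with WBP11 siRNA and 24.3% in its control, and in 17.3% in the WBP11 auxin degron and 34.6% in the auxin control. Its difference of 25.5 points (20.1 to 30.9) came mainly from a fall of 17.3 points with auxin, in an intron that overlaps an annotated exon. SAMD4B intron 15 did the same, with changes of 4.88 points with siRNA and -25.7 points with auxin.

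**Figure D3:**
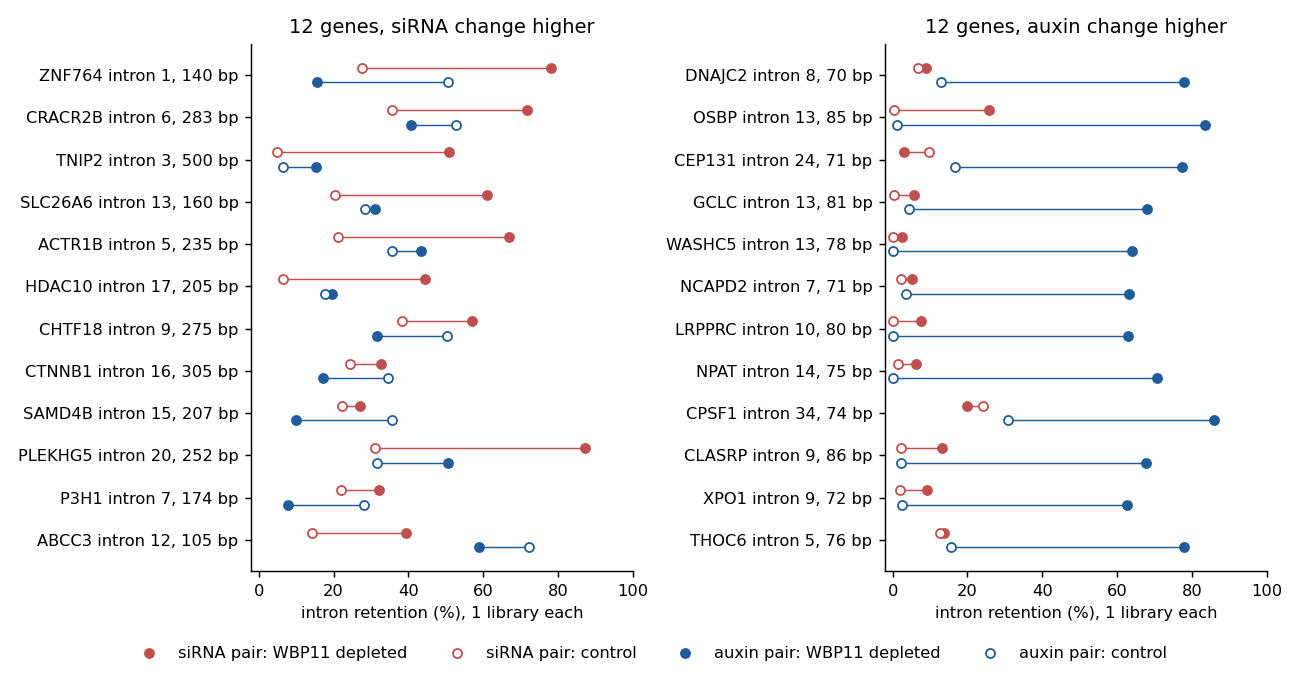
Retention in percent (x axis) of 1 intron of each of 12 genes on the siRNA side (left panel) and 12 on the auxin side (right panel), with the WBP11-depleted library as a filled point and its control as an open point, 1 library each; the siRNA pair is drawn above the auxin pair. On the right the filled auxin points lie between 62.6% and 85.9%, far from the other 3 libraries; on the left the open points of the controls lie between 4.79% and 72.1%.

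Some introns were raised far by both routes. The 8 with the largest smaller rise were 73 to 82 bp long. CLTCL1, a clathrin heavy chain, kept intron 25 in 78.4% with WBP11 siRNA and 8% in its control, and in 90.2% in the WBP11 auxin degron and 23.5% in the auxin control, with depths plus spliced reads of only 18.5 to 30.6. ATP13A1, a P5A-type ATPase of the endoplasmic reticulum, kept intron 5 in 72.6% with WBP11 siRNA and 10.7% in its control and in 87.1% in the WBP11 auxin degron and 12.3% in the auxin control. ZFYVE19, an abscission checkpoint protein, kept intron 10 in 81.5% with WBP11 siRNA and 12% in its control and in 85.6% in the WBP11 auxin degron and 30.8% in the auxin control. AP1G2, MUS81, PCNX3, CPSF1 (intron 28) and CNOT11 completed the set, with rises of 50.1 to 55.9 points with siRNA and 62.8 to 80.4 points with auxin. These introns were as short as those of the auxin side. On a log2 scale of the ratio, AP1G2, PCNX3, CPSF1 intron 28 and CNOT11 turned from a larger change with auxin to a larger one with siRNA.

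Few introns were lowered by both. The 4 with the largest smaller fall were 163 to 588 bp long. USP39, a protein of the tri-snRNP, kept a 3′ UTR intron in 49.6% with WBP11 siRNA and 77.5% in its control, and in 37% in the WBP11 auxin degron and 73.8% in the auxin control. PHF8, a histone demethylase, kept intron 17 in 14.6% with WBP11 siRNA and 39.4% in its control, and in 9.97% in the WBP11 auxin degron and 33.4% in the auxin control. The other introns were in HECTD4 and the pseudogene SMPD4BP, whose reads may be shared with SMPD4. The USP39 and HECTD4 introns overlap annotated exons.

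The introns of TUBGCP6 and of CDCA5 differed among themselves. TUBGCP6 is a subunit of the γ-tubulin ring complex needed for centriole duplication, and 14 of its 24 introns were shared. With siRNA 4 were raised and with auxin 8, and 6 were auxin-higher and none siRNA-higher. Intron 22 (85 bp, chr22:50218403-50218487) was kept in 4.53% with WBP11 siRNA and 2.82% in its control, and in 63.3% in the WBP11 auxin degron and 14.1% in the auxin control, a difference of -47.5 points (-60.4 to -31.2). Intron 12 (75 bp) was kept in 2.94% with WBP11 siRNA and 2.02% in its control and in 29.9% in the WBP11 auxin degron and 1.12% in the auxin control. Intron 23 (71 bp) was kept in 41.4% with WBP11 siRNA and 36.1% in its control and in 85.6% in the WBP11 auxin degron and 41.7% in the auxin control. These 3 introns stayed within 10 points with siRNA and were raised with auxin.

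The longer introns 17, 18 and 20 of TUBGCP6 were raised by both routes, while other introns over 100 bp were not. Intron 18 (187 bp) was kept in 75.5% with WBP11 siRNA and 39.5% in its control, and in 59.3% in the WBP11 auxin degron and 22.3% in the auxin control, with changes of 36.1 points with siRNA and 37.1 points with auxin. Intron 20 (170 bp, chr22:50218898-50219067) was kept in 40.2% with WBP11 siRNA and 6.4% in its control and in 74.4% in the WBP11 auxin degron and 16.8% in the auxin control, with changes of 33.8 points with siRNA and 57.6 points with auxin. Intron 17 (165 bp) had 18.5% with WBP11 siRNA and 0.781% in its control and 31.3% in the WBP11 auxin degron and 2.88% in the auxin control. Its difference of -10.8 points had an interval of -22.3 to 1.37, which includes 0. On a log2 scale of the ratio, introns 17 and 20 lay on the siRNA side instead. Intron 6 (156 bp) was raised with siRNA only, by 16.9 points, against 7.56 points with auxin. Intron 5 (829 bp) changed by 5.6 points with siRNA and 6.3 points with auxin. The changes were -1.48 points with siRNA and -1.68 points with auxin at intron 9 (106 bp). They were -3.28 points with siRNA and -1.06 points with auxin at intron 15 (153 bp). Not every short intron moved, and intron 21 (82 bp) had 1.22% with WBP11 siRNA and 0% in its control and 1.27% in the WBP11 auxin degron and 1.52% in the auxin control.

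CDCA5 encodes sororin, which holds sister chromatids together. Its intron 1 (209 bp) was kept in 29.9% with WBP11 siRNA and 3.77% in its control, and in 33% in the WBP11 auxin degron and 21.2% in the auxin control, a difference of 14.4 points (2.72 to 24.9). There the depleted libraries were close together and the controls far apart. Its intron 3 (85 bp) was kept in 4.15% with WBP11 siRNA and 1.68% in its control, and in 39.9% in the WBP11 auxin degron and 0.869% in the auxin control, a difference of -36.6 points (-43.3 to -31.1). Intron 2 (78 bp) had 1.5% with WBP11 siRNA and 0.307% in its control and 26.6% in the WBP11 auxin degron and 3.01% in the auxin control, while intron 5 (165 bp, overlapping an exon) changed by 0.925 points with siRNA and -2.09 points with auxin. The longer first intron was raised in both pairs, and the short introns 2 and 3 in the auxin pair only.

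In some genes the called introns lay mostly on 1 side. THOC6 and CRACR2B were picked after their values were seen, so they are examples only. In THOC6 all 8 shared introns, 74 to 102 bp long, were auxin-higher, with differences between -61.1 and -10.7 points and none raised with siRNA. CPSF1 had 8 of 15 introns auxin-higher, and 14 of the 15 are up to 100 bp long; LAMB2, a laminin chain, had 8 of 16. CRACR2B, a regulator of store-operated calcium entry, had 4 of 5 introns siRNA-higher and 1 auxin-higher, and none of the 5 was as short as 100 bp. PLXNB1, a semaphorin receptor, had 5 of 12 siRNA-higher and none auxin-higher. MAMDC4 had 8 siRNA-higher and 4 auxin-higher of 16, and COL7A1, the anchoring-fibril collagen, 7 and 7 of 24. Introns of both kinds occurred in 135 genes.

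**Figure D4:**
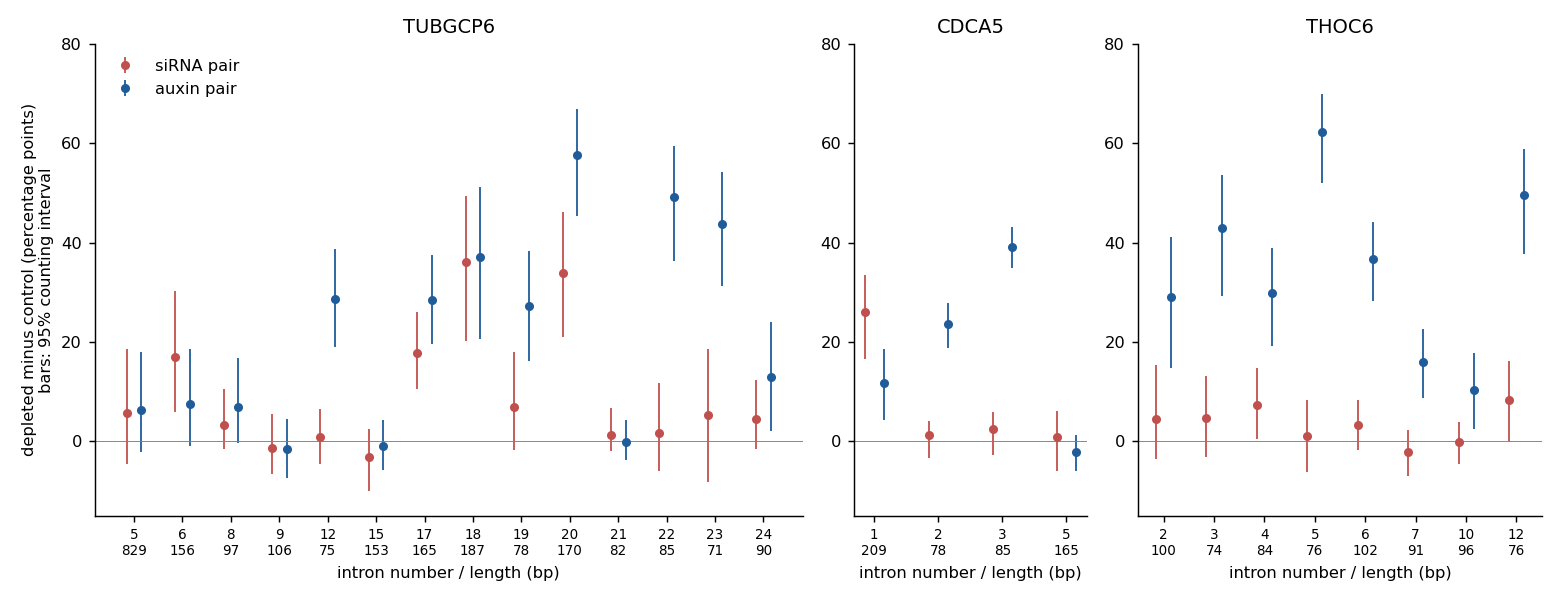
Change in retention (depleted minus control, percentage points) with its 95% counting interval for each shared intron of TUBGCP6, CDCA5 and THOC6, ordered by intron number with the length in bp under it; the siRNA pair is left of the auxin pair. In THOC6 all 8 auxin points lie above the siRNA points, while in TUBGCP6 intron 18 (187 bp) and in CDCA5 intron 1 (209 bp) the siRNA pair is also raised.

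SNW1, a core protein of the activated spliceosome, carried 1 shared intron. Intron 13 (80 bp, overlapping an annotated exon) was kept in 7.58% with WBP11 siRNA and 3.2% in its control, and in 57.5% in the WBP11 auxin degron and 4.75% in the auxin control. The difference was -48.3 points (-52.9 to -43.4), at depths plus spliced reads of 467 to 788. SNW1 spliced reads at that intron were 627 with WBP11 siRNA and 467 in its control, and 335 in the WBP11 auxin degron and 445 in the auxin control.

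Gene lists of the splicing machinery were mostly near or below the share of all introns. The lists are read against 15.1% auxin-higher and 4.41% siRNA-higher over all introns, and against the median difference of -1.39 points. Of 22 introns of SR proteins and CLK kinases, 6 were auxin-higher (27.3%) and none siRNA-higher, with a median difference of -2.88 points. CLK1, a kinase of SR proteins, kept intron 8 in 2.69% with WBP11 siRNA and 6.67% in its control, and in 35.8% in the WBP11 auxin degron and 10.5% in the auxin control. Of 20 hnRNP introns 2 were auxin-higher (10%) and 1 siRNA-higher. HNRNPH1 kept its 56 bp intron 7, the shortest of all shared introns, in 15.6% with WBP11 siRNA and 3.38% in its control, and in 66.4% in the WBP11 auxin degron and 4.73% in the auxin control, at depths of 1373 to 2983. HNRNPH3 intron 8 had 3.3% with WBP11 siRNA and 1.55% in its control and 36.2% in the WBP11 auxin degron and 3.81% in the auxin control, and HNRNPM intron 6, which overlaps an exon, was the siRNA-higher one at 18.9 points.

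Of 18 introns of the U1 and U2 snRNPs and of 3′ splice site recognition, 2 were auxin-higher (11.1%) and none siRNA-higher. Both were in SF3b, the part of the U2 snRNP that grips the branch point: SF3B2 intron 18 was kept in 4.89% with WBP11 siRNA and 0.228% in its control, and in 39.7% in the WBP11 auxin degron and 0.221% in the auxin control, and SF3B1 intron 19 changed by 0.314 points with siRNA and 15.7 points with auxin. Of 29 introns of the PRP19 complex and activated spliceosome 4 were auxin-higher (13.8%), among them RBM22 intron 5 at -27.9 points. None of 6 introns of the minor spliceosome differed by 10 points. Of 23 introns of nonsense-mediated decay 3 were auxin-higher (13%), and DHX34 introns 10 and 16 were so because they fell by 21.9 and 21.2 points with siRNA and changed by -4.84 and -7.88 points with auxin. The interval of the difference at DHX34 intron 10, -35.8 to 3.01 points, includes 0.

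Of the 39 introns of the anaphase-promoting complex and spindle checkpoint 12 were auxin-higher (30.8%), 14 of the 39 being up to 100 bp long, and none was siRNA-higher. ANAPC5, a scaffold subunit, kept intron 14 in 10.6% with WBP11 siRNA and 5.07% in its control, and in 62.9% in the WBP11 auxin degron and 8.95% in the auxin control. Of 44 DNA replication introns 13 were auxin-higher (29.5%) and none siRNA-higher, and 13 of the 44 are up to 100 bp long, with CDT1 intron 8 (licensing of origins) at -39.5 points and MCM7 intron 4 (replicative helicase) at -31.1 points. Of 28 γ-tubulin complex introns 7 were auxin-higher (25%) and 9 are up to 100 bp long. Of the 7, 6 were those of TUBGCP6, and 3 others were siRNA-higher, among them introns 7 and 8 of TUBG2 at 17.8 and 17.6 points.

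Of 72 introns of homologous recombination and the Fanconi pathway 15 were auxin-higher (20.8%) and 4 siRNA-higher. MUS81, a nuclease that cuts recombination intermediates, held neighbouring introns of different sets. Its intron 12, just over 200 bp long, was kept in 44.8% with WBP11 siRNA and 24% in its control, and in 31.3% in the WBP11 auxin degron and 34.1% in the auxin control, a difference of 23.5 points (12.7 to 34.3). Its intron 13 (74 bp) was kept in 67.4% with WBP11 siRNA and 12.3% in its control, and in 89% in the WBP11 auxin degron and 26.2% in the auxin control. RECQL4, a helicase, had introns 7 and 8 at -35.5 and -37.1 points, though the deposited ratio of intron 7 differed from depth over depth plus spliced reads by up to 10.7 points.

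Centriole and centrosome introns stood at the level of all introns, with 11 auxin-higher (15.1%) and 3 siRNA-higher of 73. CEP295, which builds the centriole wall, kept intron 29 in 5.01% with WBP11 siRNA and 10.9% in its control, and in 62% in the WBP11 auxin degron and 16.8% in the auxin control. PCNT, the pericentrin scaffold, lay on the other side, with 67.8% with WBP11 siRNA and 43.8% in its control at intron 45 and 50.2% in the WBP11 auxin degron and 48.8% in the auxin control. Of 39 introns of sister chromatid cohesion 6 were auxin-higher (15.4%) and 3 siRNA-higher. SGO1, which protects cohesin at the centromere, kept intron 2 in 0.441% with WBP11 siRNA and 2.02% in its control, and in 44.3% in the WBP11 auxin degron and 0.821% in the auxin control, whereas introns 8 and 9 of CHTF18, of the cohesion clamp loader, were siRNA-higher at 20.5 and 37.3 points.

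Among the remaining lists, 7 of 42 proteasome introns (16.7%) and 8 of 44 aminoacyl-tRNA synthetase introns (18.2%) were auxin-higher, with MARS1 intron 3, of methionyl-tRNA synthetase, raised by 11.4 points with siRNA and 33.5 points with auxin. AARS2 intron 16 was the 1 siRNA-higher synthetase intron, at 27.9 points. Of 39 interferon response introns 6 were auxin-higher and 3 siRNA-higher. PARP10 intron 7 was among these 3, kept in 82.3% with WBP11 siRNA and 22.7% in its control and in 76.6% in the WBP11 auxin degron and 47.4% in the auxin control. The p53 targets had no auxin-higher and 3 siRNA-higher introns of 32, with PLK3 introns 8 and 9 at 13.3 and 13.9 points. PLK3 intron 9 overlaps an annotated exon, and its interval of -2.45 to 31.7 points includes 0. Its changes were 4.38 points with siRNA and -9.51 points with auxin. Of 16 colon epithelial introns 2 were auxin-higher, in CLDN7 and ESRP2.

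Opposite movement by at least 10 points was rare, with 22 introns raised with siRNA and lowered with auxin (0.212%) and 21 the other way round (0.202%). ZNF764, a zinc-finger gene, kept intron 1 in 78.2% with WBP11 siRNA and 27.6% in its control, and in 15.6% in the WBP11 auxin degron and 50.5% in the auxin control, at depths plus spliced reads of only 18.3 to 23.5. Its difference of 85.5 points had an interval of 44.1 to 114. Of the 4 introns named on the other side, STK36 intron 22 was kept in 55.6% with WBP11 siRNA and 71.4% in its control, and in 66.1% in the WBP11 auxin degron and 34.7% in the auxin control, a difference of -47.2 points (-76.6 to -15.1). SRSF1, the SR protein, joined them with intron 3, which overlaps an annotated exon: 23.7% with WBP11 siRNA and 35% in its control, and 23.3% in the WBP11 auxin degron and 10.6% in the auxin control. There the depleted libraries were level and the controls apart.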

How the data were processed

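Intron retention in 4 polyA RNA libraries was taken from 2 tables that each hold 1 depleted library and its control. The authors made them with IRFinder from STAR alignments, per the file headers. Per the submitters' processing notes, hg38, bedtools and RSEM were also used, without versions. The IR ratio is deposited as a fraction, the intron depth as a coverage signal and the spliced reads as a count per intron. None was scaled between libraries. Reads of overlapping exons, or of genes on the other strand, can count as retention, since strand use is not stated. The deposited ratio differed from depth over depth plus spliced reads by more than 1 point in at least 1 library at 1247 introns (12%), and by more than 10 points at 49; the deposited ratio was kept. The deposited p-values were not used.

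All 10391 shared introns matched introns of GENCODE 29 (GRCh38) exactly, which gave intron numbers, coding or UTR place and exon flanks; 5 had no current symbol. Coordinates are counted from 1. Intervals at 95% are Wilson intervals for a ratio, combined by the MOVER method for a change and for the difference of changes, where n is the sum of depth and spliced reads. Reads do not stand for independent molecules, so the intervals cover counting error only. Calls use 10 percentage points. Members and gene lists were chosen with earlier results of these data known, so no list is independent evidence. Named genes are WBP11, SNW1, TUBGCP6 and CDCA5; the 12 genes each way with the largest difference by the interval bound nearest to 0; the 8 introns raised in both and the 4 lowered in both with the largest smaller change; up to 4 opposite movers each way; and up to 2 introns each way of each of 18 lists. Genes with the most called introns were added as counts. THOC6 and CRACR2B were also read intron by intron, chosen after their values were seen. Alternatives were other call sizes, depth minimums, median centring, added counts, a log2 scale, 1 intron a gene, introns without warnings or exon overlaps, close controls and, added after seeing the data, a recomputed ratio and every alternative for the opposite movers. With 1 library a group, no model or test was fitted. Depth per intron (medians 106 to 130) limits precision: the median half-width of the interval of a difference of changes was 9.16 points. The calls were tested on simulated data, which does not measure variation between libraries of the same group. Python 3.11.15, pandas 2.3.3, numpy 2.4.6 and scipy 1.17.1 were used.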

Additional observations from a re-analysis of the deposited data

Results flagged for a closer look

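Of the 43 introns that moved in opposite directions, 13 fall under the rule for named genes. At these the change went at least 10 points one way with WBP11 siRNA and at least 10 points the other way in the WBP11 auxin degron. Each group has 1 library, so the difference was not tested at any of them. Raised with siRNA and lowered with auxin were ZNF764 intron 1 (difference of changes 85.5 points), MLH3 intron 1 in the 5′ UTR of a mismatch repair gene (54.4), CRACR2B introns 6 (47.9) and 7 (43.5), ABCC3 intron 12 (38.4), TEPSIN intron 9 (38.4), CHTF18 intron 9 (37.3) and P3H1 intron 7 (30.3). Lowered with siRNA and raised with auxin were STK36 intron 22 (-47.2), ARHGEF39 intron 6 (-41.3), DAGLA intron 11 (-40.3), PSD4 intron 3 (-37.2) and SRSF1 intron 3 (-23.9). CRACR2B intron 6 here is chr11:830338-830620. A further CRACR2B intron, chr11:830714-830865, also carries number 6 and is not among the 13. That intron changed by 17.2 points with siRNA and -22.3 points with auxin.

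Depth was low at several of them. MLH3 intron 1 had 31.3 observations with WBP11 siRNA and 19 in its control, and 16.6 in the WBP11 auxin degron and 11.8 in the auxin control, and its interval ran from 11.1 to 90.8 points. PSD4 intron 3 had 12.2 with WBP11 siRNA and 24.5 in its control, and 10.3 in the WBP11 auxin degron and 16 in the auxin control, and its interval of -74.6 to 5.95 points includes 0. The interval of the auxin change included 0 at MLH3 (-48.8 to 13.8 points) and ABCC3 (-30.9 to 5.67). That of the siRNA change did so at P3H1 (-0.401 to 21.1) and STK36 (-39.4 to 8.34), and both did at PSD4. ABCC3 intron 12 overlaps an annotated exon, with 14.2% in the siRNA-arm control and 72.1% in the auxin control. CRACR2B intron 7 had a deposited ratio up to 39.8 points away from depth over depth plus spliced reads, and its difference was 20 points with the recomputed ratio. SRSF1 intron 3 was deeply read, with 610 observations with WBP11 siRNA and 668 in its control, and 1322 in the WBP11 auxin degron and 1303 in the auxin control.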

How the results depend on the processing

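Each group has 1 library, so no library could be left out. No paired analysis was possible because the 4 libraries share no replicate beyond 1 per group. Counts are given as siRNA-higher, auxin-higher, raised in both, lowered in both, raised with siRNA, raised with auxin and opposite. As reported they were 458, 1571, 723, 39, 1082, 2144 and 43. With a call size of 5 points they were 978, 2801, 1464, 172, 2029, 3498 and 195, and with 20 points 137, 696, 260, 7, 435, 1075 and 2. A depth minimum of 50 left 6994 introns, with 190, 1039, 442, 21, 608, 1412 and 18. With 1 intron a gene (4432) they were 144, 575, 209, 18, 316, 755 and 15. Introns with no warning in all 4 libraries (2270) gave 119, 442, 205, 7, 291, 600 and 10. These settings test fewer introns or another size. With controls within 5 points, 155 were siRNA-higher, 366 raised in both, 16 lowered in both, 552 raised with siRNA and 11 opposite. With intervals that leave out 0, 203 were siRNA-higher, 24 lowered in both and 14 opposite. Without introns marked by the depositors as overlapping an exon, 24 were lowered in both. Auxin-higher introns outnumbered siRNA-higher ones in each of these settings. The median difference of changes stayed below 0, between -1.64 and -0.213 points, over 10 alternatives. For introns of up to 80 bp it stayed between -18.9 and -17.5 over 5.

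Of 400 alternative values for the 100 named introns, 15 changed sign and 6 others moved by more than the interval's half-width. Of the 15, 7 belong to introns whose difference was at least 10 points, all on a log2 scale (ratio plus 0.01): TUBGCP6 introns 17 (0.39) and 20 (0.40), AP1G2 (0.10), PCNX3 (1.66), CPSF1 intron 28 (0.95), CNOT11 (0.13) and STAT2 intron 14 (0.71). The other 8 belong to differences under 10 points, with 4 on the log2 scale (TUBGCP6 introns 8 and 24, MUS81 intron 13 and PHF8) and 4 under median centring, added counts or the recomputed ratio (TUBGCP6 introns 5 and 18). With the recomputed ratio DNAJC2 had -69.5 points and RECQL4 intron 7 -46.3 points.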
